A study of Homo sapiens with 2 samples.

Results

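A set of 36 genes of the lysosome was examined in HSC-3 cells cultured on Myogel and on plastic. The set holds proteins of the lysosomal membrane, subunits of the vacuolar proton pump (V-ATPase), cathepsins, other lysosomal hydrolases, the cholesterol transporters NPC1 and NPC2 and the transcription factors TFEB, TFE3 and MITF. It was chosen by gene name. A gene was measured where at least 1 probe set of the array is annotated to that gene alone, which was the case for 34 of the 36 genes, among 19775 genes in all. ATP6V1F and GLB1 have a probe set that is shared with another gene, and no value is given for them. HSC-3 is an established, aggressive line of tongue squamous carcinoma cells. In both groups the cells carried a red fluorescent protein from a lentivirus with a control sequence that does not code, had been selected with puromycin, and grew in DMEM/F-12 medium with fetal bovine serum, antibiotics, ascorbic acid and hydrocortisone. Myogel is a soluble extract of human uterine leiomyoma, a benign smooth muscle tumor. The cells on Myogel and the cells on uncoated plastic were harvested the day after seeding, RNA of 3 wells per surface was pooled in equal amounts, and each pool was hybridised to 1 array. Each surface is therefore 1 sample of 1 cell line, the pooling leaves no spread between wells, and no p-value is given for any difference.

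Lysosomes are acidic compartments in which proteins, lipids and glycans are broken down. The V-ATPase pumps protons across their membrane with energy from ATP, heavily glycosylated membrane proteins such as LAMP1 and LAMP2 line the inner surface, and cathepsins and glycosidases work in the acidic lumen. Carcinoma cells can also secrete cathepsins, which then cut matrix proteins outside the cell.

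The values are linear array intensities as deposited, with a lowest value of 1. Fold change (FC) is the intensity on Myogel over that on plastic, and a gene was counted as higher or lower with FC 1.5 or more, the fold threshold of the methods of the study. No filter on signal or on the size of the difference was applied, so that the counts over all genes include many dim ones and are no estimate of how many genes the study called. For each gene the brightest probe set was taken, by mean log2 intensity. Intensities of different probe sets depend on their probes and were not ranked against each other. As a measure of the spread of these 2 arrays, the range of log2 FC that holds 95% of the 1000 probe sets nearest in signal was taken for each gene. By this definition 5% of probe sets of like signal lie outside their range, and the range describes the arrays and is not a test.

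Most lysosomal genes lay within FC 1.5 between the surfaces, as did most genes of at least median signal. Of 34 measured genes, 1 was higher and 1 was lower on Myogel with FC 1.5 or more, 32 lay within these limits, and none reached FC 2. The higher gene was CTSK, a collagen-degrading cathepsin, and the lower gene was ATP6V0D1, a subunit of the V-ATPase. Over all 19775 genes, 9.71% were higher and 17.5% were lower by this threshold. Most of these are dim, whereas 31 of the 34 lysosomal genes lay at or above the median signal, where the shares were 1.19% higher and 2.09% lower. Of these 31 genes, 1 was higher and 1 was lower, 6.45% either way, against 3.29% of all genes of that signal. At FC 1.2 or more, 3 lysosomal genes were higher (CTSK, CTSF and ATP6V0A1), against 18.1% of all genes, and 7 were lower (LAMP3, CTSH, CTSO, ATP6V0D1, ATP6V1C1, ATP6V1H and GAA), against 30.8%. At or above the median signal these counts were 3 and 6 of 31 genes, against 9.28% and 14.2% of all genes of that signal. The median log2 FC of the 34 genes was 0.008, with 18 genes above 0 and 16 below it, and that of all genes was -0.07. The scaling between the arrays is not stated. Quantile normalization gave 2615 higher and 2563 lower calls over all genes, against 1921 and 3469 without it, and 2 higher and 1 lower among the lysosomal genes. When the median log2 ratio of all probe sets was set to 0, which raised every log2 FC by 0.11, 10 lysosomal genes lay above and 4 below FC 1.2, and after loess centring 4 lay above and 6 below it. The shares of all genes at FC 1.2 were not counted under these scalings, so that these counts have no background beside them.

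**Figure D1:**
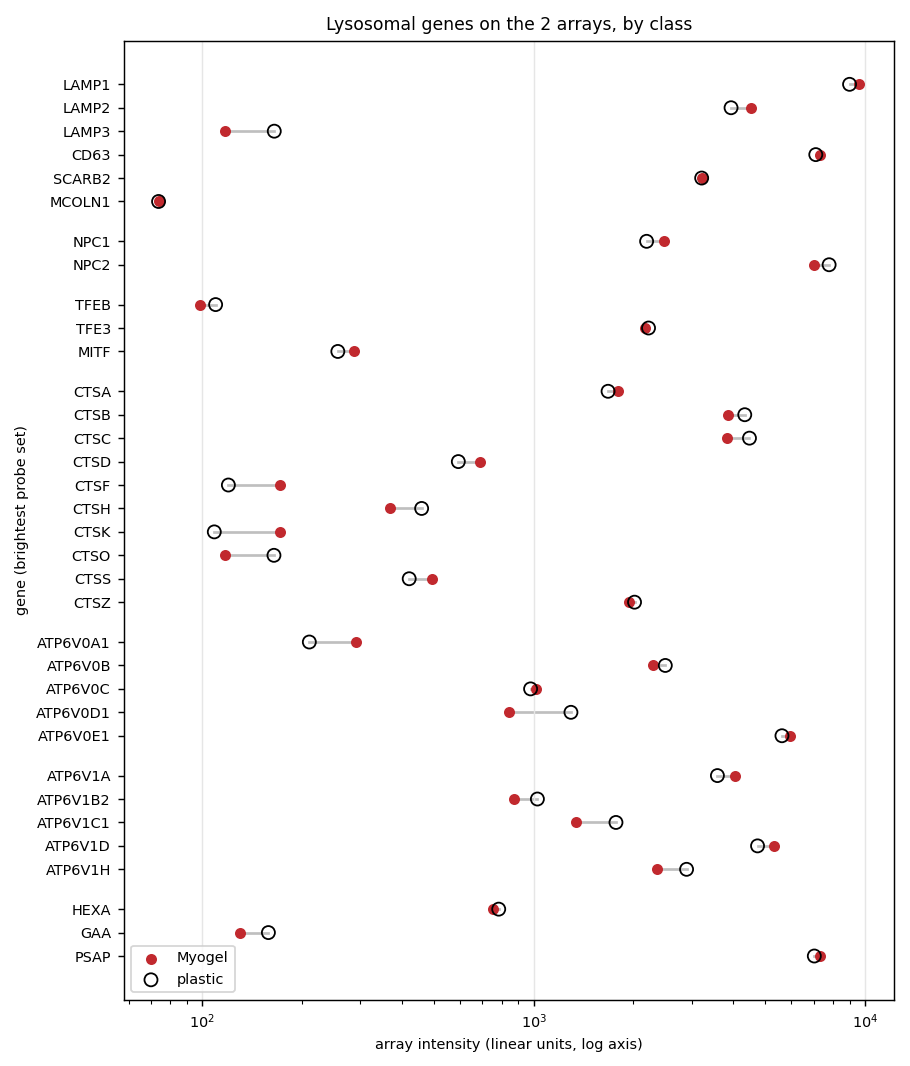
Intensity (x axis, linear units on a log axis) of the brightest probe set of 34 lysosomal genes (y axis), with filled red points for the array of cells on Myogel, open circles for the array of cells on plastic and gaps between the classes. The paired points lie close together for most genes, with the widest gaps at CTSK (171 on Myogel, 109 on plastic) and ATP6V0D1 (844 on Myogel, 1296 on plastic).

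The transcription factors come first, since they act on many of the other genes. TFEB, TFE3 and MITF bind E-box sequences in the promoters of lysosomal and autophagy genes. Their activity is set largely by phosphorylation, which keeps them in the cytoplasm while mTORC1 is active, so that their own transcript level is not a measure of it. TFE3 had an intensity of 2164 on Myogel and 2223 on plastic (log2 FC -0.04), whereas its second brightest probe set was 1.22-fold higher (209 on Myogel, 172 on plastic). MITF, best known from melanocytes, had 286 on Myogel and 256 on plastic (log2 FC 0.16), and both of its other probe sets were also slightly higher (log2 FC 0.05 and 0.06). TFEB was dim, with 98.6 on Myogel and 109.6 on plastic (log2 FC -0.15). Each of the 3 was inside its range. The direction of TFEB and TFE3 is not settled, since TFEB had a log2 FC of 0.005 after loess centring and TFE3 had 0.07 when the median log2 ratio was set to 0.

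The promoters of the measured genes were searched for the E-box CACGTG, which reads the same on both strands, and for the longer TCACGTGA, which contains it and forms the middle of the element that TFEB binds. The windows were 300 bases, with 250 bases before and 50 after an annotated start, taken from RefSeq (GRCh38.p14). A window was at hand for 21 of the 34 genes. The E-box was found in 9 of these genes (42.9%), against 10.9% of all 15384 measured genes with a window, and TCACGTGA was found in 5 (23.8%), against 1.66%. A match at any annotated start of a gene was counted. The 21 genes had 34 starts, against 21490 starts for the 15384 genes, and the shares were not adjusted for this. A match is a description of the sequence and not a measured binding site. The bases just before the start are given for the 5 genes with TCACGTGA, to show how the E-boxes lie in them, with each E-box in capitals. The stretches lie at chr13:113297039-113297238 on the plus strand for LAMP1, chr16:67481158-67481257 on the minus strand for ATP6V0D1, chr19:7522524-7522623 on the plus strand for MCOLN1, chr17:80101481-80101580 on the plus strand for GAA and chr20:45891235-45891334 on the plus strand for CTSA.
LAMP1: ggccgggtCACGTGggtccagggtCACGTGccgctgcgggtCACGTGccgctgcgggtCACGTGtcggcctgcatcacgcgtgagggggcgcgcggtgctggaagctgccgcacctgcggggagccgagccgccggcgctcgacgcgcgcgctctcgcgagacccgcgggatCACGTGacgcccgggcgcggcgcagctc
ATP6V0D1: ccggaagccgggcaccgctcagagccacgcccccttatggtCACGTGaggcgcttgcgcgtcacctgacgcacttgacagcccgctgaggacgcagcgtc
MCOLN1: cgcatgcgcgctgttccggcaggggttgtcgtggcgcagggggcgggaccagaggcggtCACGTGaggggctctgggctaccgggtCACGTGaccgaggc
GAA: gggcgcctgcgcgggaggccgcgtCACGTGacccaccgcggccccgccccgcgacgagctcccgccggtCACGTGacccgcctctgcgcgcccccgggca
CTSA: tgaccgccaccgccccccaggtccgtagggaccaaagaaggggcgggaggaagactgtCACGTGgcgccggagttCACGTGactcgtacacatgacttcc
LAMP1 had 6 E-boxes in its window, of which 5 are shown here, and the other begins 1 base before the start. MCOLN1, GAA and CTSA had 2 each and ATP6V0D1 had 1. Genes that share these letters went both ways on Myogel. The 9 genes with an E-box were LAMP1, CD63, MCOLN1, CTSA, CTSD, CTSF, ATP6V0B, ATP6V0D1 and GAA, with log2 FCs between -0.62 and 0.52, a median of 0.05, and 6 above and 3 below 0. The 12 genes without an E-box in the window had log2 FCs between -0.32 and 0.47 and a median of -0.02.

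Among the membrane proteins, the abundant ones had nearly the same values on both surfaces. LAMP1, one of the main glycoproteins of the lysosomal membrane, had 9624 on Myogel and 8990.0 on plastic, which is 1.07-fold higher on Myogel. Its second brightest probe set was also slightly higher (4468 on Myogel, 4123 on plastic). Another one gave 324 on Myogel and 612 on plastic, which is 1.89-fold lower and outside the range for its signal. LAMP1 transcripts thus had a direction that differed between probe sets of the same gene. LAMP2, which also serves as a receptor in chaperone-mediated autophagy, had 4524 on Myogel and 3944 on plastic (log2 FC 0.20). Its 3 dimmer probe sets were lower on Myogel, with log2 FCs of -0.04, -0.17 and -0.42. CD63, a tetraspanin of late endosomes and exosomes, had 7337 on Myogel and 7108 on plastic. SCARB2, the receptor that carries glucocerebrosidase to the lysosome, had 3231 on Myogel and 3216 on plastic, and its other probe sets had log2 FCs of -0.38, -0.08 and -0.50. The calcium channel MCOLN1 was dim and equal on both, with 74.2 on Myogel and 73.7 on plastic. LAMP3, known from dendritic cells and from hypoxic tumors, differed most in this class, with 117 on Myogel and 165 on plastic. It was 1.41-fold lower, inside the range of -0.90 to 0.68 for its signal. NPC2, which hands cholesterol to NPC1 in the lumen, had 7003 on Myogel and 7799 on plastic (log2 FC -0.16). NPC1, which exports it through the membrane, had 2472 on Myogel and 2193 on plastic (log2 FC 0.17). Its other 3 probe sets, with values of 30.9 or less on both arrays, went beyond FC 1.5, with 2 higher and 1 lower.

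**Figure D2:**
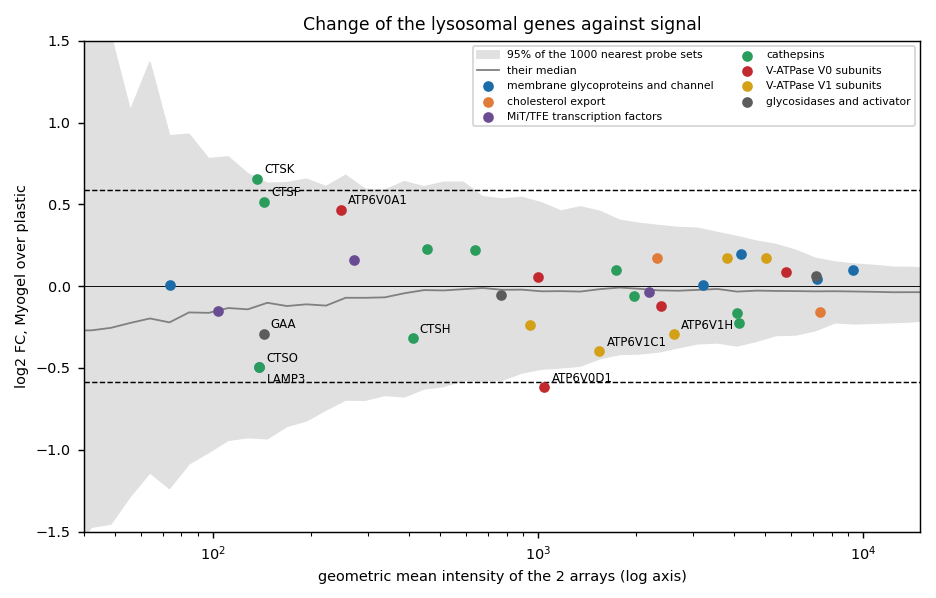
Difference between the surfaces (y axis, log2 FC, Myogel over plastic) against the geometric mean intensity of the arrays (x axis, log axis) for the brightest probe sets of 34 lysosomal genes, with 1 colour per class, dashed lines at FC 1.5 and grey shading and a grey line for the middle 95% and the median of the 1000 probe sets nearest in signal. Genes with FC 1.2 or more are named, and ATP6V0D1 lies below the shading with a log2 FC of -0.62, and 33 genes lie inside their own ranges.

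The V-ATPase has a membrane sector (V0), through which the protons pass, and a cytosolic sector (V1), which hydrolyses ATP. In V0, ATP6V0D1 is the d subunit that joins the rotor of both sectors. It had 844 on Myogel and 1296 on plastic. This is 1.54-fold lower on Myogel, with a log2 FC of -0.62, whereas 95% of its neighbours in signal lay between -0.54 and 0.49. Of the 34 brightest probe sets it is the one outside its range. A single probe set represents the gene, so that no other was at hand as a check. After quantile normalization its log2 FC was -0.60, and with the median log2 ratio set to 0 it was -0.51, within FC 1.5. The other V0 subunits lay within FC 1.5. ATP6V0A1, an isoform of the large subunit that lines the proton path, had 291 on Myogel and 210.3 on plastic, 1.38-fold higher. The proteolipid ATP6V0C, which forms most of the rotating ring, had 1016 on Myogel and 979 on plastic, and its other probe set gave 1022 on Myogel and 958 on plastic. ATP6V0B, the second proteolipid, had 2293 on Myogel and 2497 on plastic. ATP6V0E1, a small subunit with 7 probe sets, had 5959.7 on Myogel and 5619 on plastic in the brightest one. One of the others was 1.92-fold lower (495 on Myogel, 949.9 on plastic), outside the range for its signal. The dimmest was 2.13-fold lower (31.4 on Myogel, 67.0 on plastic), inside its range. The remaining ones had log2 FCs between -0.16 and 0.14, and the mean over all probe sets of ATP6V0E1 was -0.28.

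In the V1 sector, 3 of 5 measured subunits were lower and 2 were higher on Myogel, all within FC 1.5, and the median log2 FC was -0.24. This median was between -0.22 and -0.13 after quantile normalization, loess centring and setting the median log2 ratio to 0. ATP6V1C1, a subunit of the stalk that holds the sectors together, had the lowest log2 FC of these, -0.40, with 1345 on Myogel and 1772 on plastic. The 2 next in brightness went the other way, with log2 FCs of 0.24 and 0.15. ATP6V1H, a regulatory subunit, had 2361 on Myogel and 2895 on plastic (log2 FC -0.29). Both of its dim probe sets were lower as well, with log2 FCs of -0.22 and -1.46. The latter (25.4 on Myogel, 69.9 on plastic) lay beyond FC 1.5 but inside the range for its signal. ATP6V1B2, which pairs with the catalytic subunit in the ring that binds ATP, had 871 on Myogel and 1027 on plastic from 1 probe set. The catalytic subunit ATP6V1A had 4045 on Myogel and 3588 on plastic (log2 FC 0.17), but its second probe set was 1.51-fold lower, with 330.2 on Myogel and 498 on plastic. ATP6V1D, of the central rotor, had 5334 on Myogel and 4742 on plastic (log2 FC 0.17), and its second probe set had 4134 on Myogel and 4682 on plastic. Of the dimmer ones, 1 was nearly equal (log2 FC 0.08) and 1 was 1.82-fold higher (119.6 on Myogel, 65.8 on plastic). The subunits of the pump, which work in fixed proportions in the assembled complex, thus showed 5 values above and 5 below 0 over both sectors.

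The cathepsins went both ways, with 5 higher and 5 lower on Myogel and a median log2 FC of 0.02. CTSK, the collagenase of osteoclasts and of some stromal cells, had 171 on Myogel and 109 on plastic. It was 1.58-fold higher on Myogel, with a log2 FC of 0.66 inside the range of -0.90 to 0.67 for its signal. It is represented by 1 probe set, and the difference of 62.8 linear units is under 100. With 50 added to both values the log2 FC of CTSK no longer reached FC 1.5. CTSF, a cysteine protease found in many tissues, had 171 on Myogel and 119.8 on plastic. It was 1.43-fold higher, and its log2 FC was 0.64 after quantile normalization, beyond FC 1.5. CTSO, a related protease, had 117 on Myogel and 164 on plastic, 1.41-fold lower. Probe sets of a signal like that of these 3 genes spread widely, and all 3 lay inside their ranges.

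The other cathepsins lay within FC 1.5 in their brightest probe sets. CTSB, a cysteine protease linked to carcinoma invasion, had 3867 on Myogel and 4339 on plastic (log2 FC -0.17). All 5 of its probe sets were lower on Myogel, with log2 FCs between -0.35 and -0.17, each inside the range for its signal. CTSC, which activates serine proteases by removing dipeptides, had 3842 on Myogel and 4483 on plastic (log2 FC -0.22). Its second probe set was 1.45-fold lower and outside its range (1695 on Myogel, 2452 on plastic), the third was nearly equal (1730 on Myogel, 1827 on plastic), and the dimmest had a log2 FC of 0.09. CTSD, the main aspartic protease of the lysosome, had 689 on Myogel and 592 on plastic (log2 FC 0.22). CTSA, which protects beta-galactosidase and neuraminidase from degradation, had 1797 on Myogel and 1678 on plastic. CTSZ, a carboxypeptidase, had 1936 on Myogel and 2017 on plastic, and its other probe set was at or near the floor (9.88 on Myogel, 1 on plastic). CTSH, an aminopeptidase, had 368 on Myogel and 459 on plastic, 1.25-fold lower. CTSS, which processes the invariant chain of MHC class II molecules, had 492 on Myogel and 421 on plastic. The next in brightness was lower (284 on Myogel, 380 on plastic), and the dimmest was higher (log2 FC 0.17).

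Of the remaining luminal proteins, PSAP, the precursor of the saposins that help break down sphingolipids, had 7338 on Myogel and 7036 on plastic. Its other probe set was lower (2125 on Myogel, 2711 on plastic, log2 FC -0.35). HEXA, the alpha subunit of beta-hexosaminidase, had 756 on Myogel and 784 on plastic, whereas a dimmer probe set was 1.88-fold higher (108 on Myogel, 57.6 on plastic). Another was nearly equal (log2 FC 0.07), and the dimmest was lower (1 on Myogel, 15.9 on plastic). The mean log2 FC over all probe sets of HEXA was -0.76. GAA, which degrades glycogen in the lysosome, had 129 on Myogel and 158 on plastic (log2 FC -0.29, inside the range of -0.87 to 0.63). No gene of this class reached FC 1.5 in its brightest probe set.

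The probe sets of a gene often differed in direction. The 34 genes had 83 probe sets, and 14 genes had only 1. For 20 genes with at least 2, the brightest and the second brightest went the same way in 8, against 54.5% of 10523 genes over the whole array. Where the second probe set was at or above the median signal, this was the case for 5 of 14 lysosomal genes, against 56.6% of all genes of that kind. Of the 49 probe sets that were not the brightest of their gene, 6 lay above and 8 below FC 1.5, against 14.7% above and 25.7% below it among the 21316 such probe sets of all genes. Of these 14, 9 stayed under 100 on both arrays, and 4 of the 49 were at the floor of 1 on an array. The values of 3 of the 14 were also 100 linear units or more apart, those of LAMP1, ATP6V0E1 and ATP6V1A, and each of these was lower on Myogel. Over all 83 probe sets, 4 (4.82%) lay outside the ranges for their signal, those of LAMP1, CTSC, ATP6V0D1 and ATP6V0E1 given above, and all 4 were lower on Myogel. For 23 of the 34 genes, no probe set reached FC 1.5, and the share of all genes for which this holds was not counted.

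**Figure D3:**
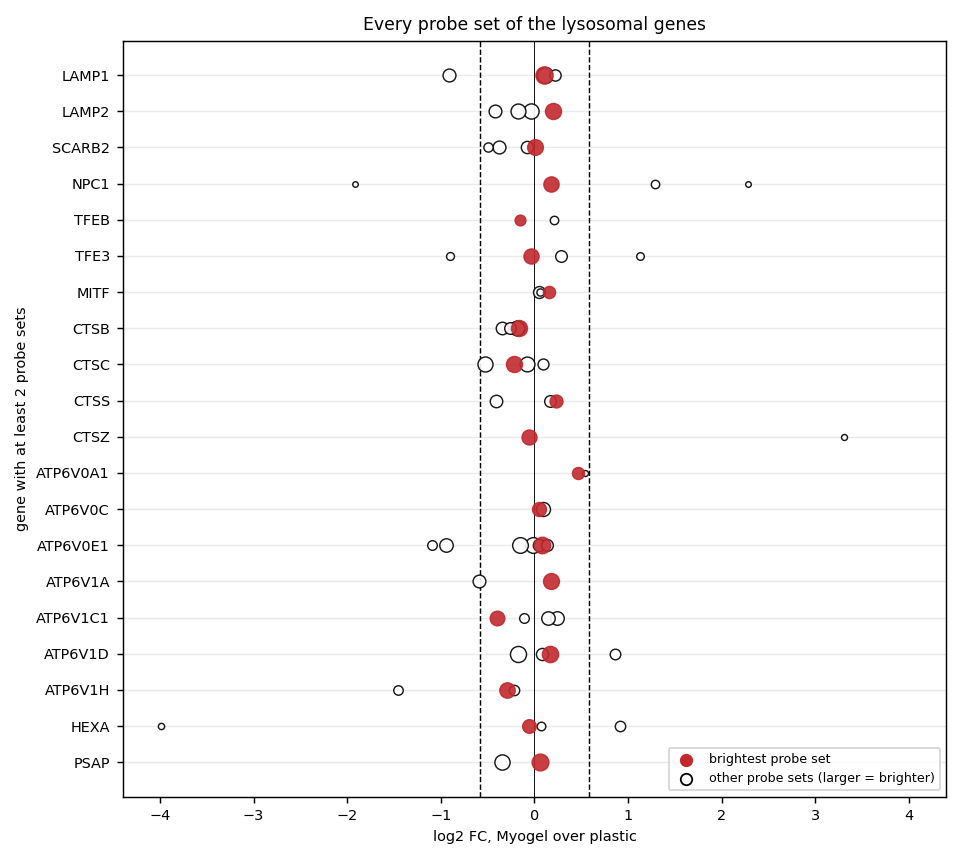
The log2 FC of Myogel over plastic (x axis) for every probe set of the 20 lysosomal genes with at least 2 (y axis), with filled red points for the brightest probe set, open circles for the others, point size rising with intensity and dashed lines at FC 1.5. The brightest probe sets all lie within FC 1.5, and the circle farthest from 0, that of HEXA at -3.99, is that of a dim probe set.

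Genes of the same compartment outside the 36 were counted in 8 lists, of which 140 genes of 151 were measured. With FC 1.5 or more, 5 were higher and 8 were lower, 9.29% either way, against 27.3% of all genes. The log2 FC lay above 0 for 47 and below it for 93, against 8074 and 11612 of all genes. Their median log2 FC was -0.11, against -0.07 for all genes, and the medians of the 8 lists lay between -0.17 and -0.06. In each list most genes were of at least median signal. Over all genes of such signal the median was -0.03, and 3.29% lay beyond FC 1.5. The 9.29% and the medians of the lists include their dim genes and are not like for like with these values. Of the related genes beyond FC 1.5, only CST4 and CLN3 were of such signal. The cause of the lower medians was not tested. Of the 140 genes, 8 (5.71%) lay outside the ranges for their signal, near the 5% that the definition gives, with ATP6V0E2, ATP6V1B1 and CST4 above and ATG5, MAP1LC3B, RRAGA, GM2A and CST7 below. Among 25 other lysosomal hydrolases and activators none reached FC 1.5, and the gene of at least median signal that changed most was ACP2, a lysosomal acid phosphatase (459 on Myogel, 651 on plastic). Likewise none of 19 genes of mannose 6-phosphate sorting and delivery did, where GNPTG, which takes part in making the sorting signal, had 349 on Myogel and 479 on plastic. None of 22 autophagy genes reached it either. ATG5, required to lengthen the autophagosome membrane, had 1371 on Myogel and 1896 on plastic, a log2 FC of -0.47 against a range of -0.41 to 0.39 for its signal. Of 19 genes for mTORC1 and TFEB control at the lysosome, 1 was lower, the dim RRAGB (43.6 on Myogel, 78.4 on plastic). FLCN, which acts on the Rag GTPases there, changed most among those of at least median signal (351 on Myogel, 249 on plastic).

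Of 21 other lysosomal membrane proteins, 2 were lower with FC 1.5 or more. CLN3, mutated in a neuronal storage disease, had 188 on Myogel and 290.4 on plastic, 1.54-fold lower and inside the range for its signal, and LAMP5 was at the floor on Myogel and 15.7 on plastic. Of 8 other cathepsins and related proteases, 1 was lower, the dim CTSW (2.02 on Myogel, 4.37 on plastic). CTSV, a cathepsin of thymus and squamous epithelium, had 1575 on Myogel and 2013 on plastic. Cystatins, the inhibitors of cysteine cathepsins, were 2 higher and 2 lower of 9. CST4 had 197 on Myogel and 97.6 on plastic, 2.02-fold higher, with a difference of 99.9 linear units. The other cystatins beyond FC 1.5 were dim, namely CST1 (19.96 on Myogel, 4.62 on plastic), CST2 (1 on Myogel, 20.8 on plastic) and CST7 (5.08 on Myogel, 45.1 on plastic). Of 17 further V-ATPase subunits and accessory proteins, 3 were higher (ATP6V0E2, ATP6V1B1 and ATP6V1G3) and 2 were lower (ATP6V1C2 and ATP6V1G2), and each of these had values of 102.1 or less on both arrays. Of the brighter ones, ATP6V1E2 changed most (574 on Myogel, 732 on plastic). MAP1LC3B, RRAGA, GM2A, RRAGB, LAMP5, CTSW, CST1, CST2, CST7 and the 5 dim V-ATPase subunits were named after their values were seen.

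**Figure D4:**
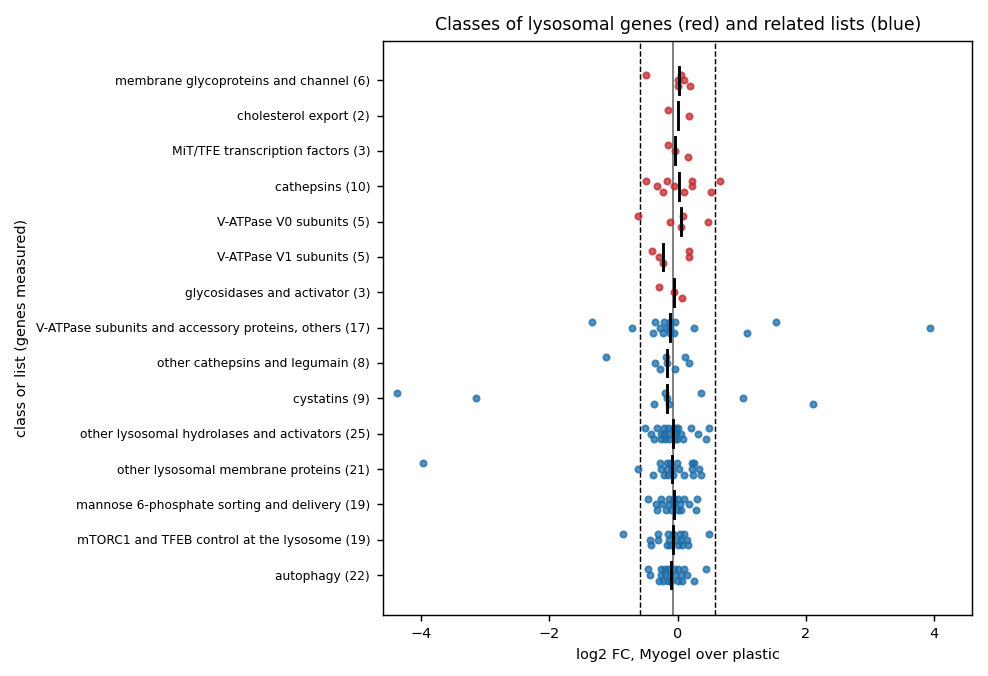
The log2 FC of Myogel over plastic (x axis) of each gene in the 7 classes of lysosomal genes (red) and in 8 lists of related genes (blue), with black bars at the medians, a grey line at the median of all genes (-0.07), dashed lines at FC 1.5 and the number of measured genes in parentheses. Nearly all red points lie between the dashed lines, and the blue points farthest from 0, those of CST2, LAMP5 and ATP6V1B1, belong to dim genes.

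The labelled cell type was checked against markers. The squamous epithelial markers KRT14 (18224 on Myogel, 18856 on plastic), KRT5 (10125 on Myogel, 11907 on plastic), CDH1 and DSG3 were above the median signal on both arrays, and 4 others of that list were not measured by a probe set of their own. Markers of other cells known for some of these genes were partly at the floor and partly (CD14, COL1A1, ACTG2 and MYH11) above the median signal. The 9 markers of macrophages and other blood cells, in which CTSS is abundant, summed to 559 on Myogel and 672 on plastic. CD14 (302 on Myogel, 298 on plastic) and AIF1 (86.9 on Myogel, 139 on plastic) were the brightest, with CD163 and TYROBP at the floor on Myogel. In the list for osteoclasts, in which CTSK is abundant, CALCR had 22.9 on Myogel and 35.5 on plastic and DCSTAMP was at the floor on both, while ACP5 and OCSTAMP were not measured by a probe set of their own. Fibroblast markers summed to 711 on Myogel and 709 on plastic over 6 genes, with COL1A1 (454 on Myogel, 431 on plastic) and DCN (91.2 on Myogel, 119 on plastic) as the brightest. The 6 smooth muscle markers, the cell type of the tissue from which Myogel is made, summed to 630 on Myogel and 648 on plastic, with ACTG2 (272 on Myogel, 239.7 on plastic) and MYH11 (174 on Myogel, 198 on plastic) as the brightest and CNN1 at the floor on Myogel. In the list for melanocytes, in which MITF is abundant, 3 genes summed to 104.6 on Myogel and 129 on plastic, with TYR (32.5 on Myogel, 57.5 on plastic) and PMEL (37.5 on Myogel, 47.7 on plastic) as the brightest. The part of other cell types in the values of CTSS, CTSK and MITF was not tested further. In a culture as measured here, fewer transcripts per cell and a change in the share of cells that make them cannot be told apart.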

How the data were processed

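RNA of HSC-3 cells from each surface was measured on 1 Affymetrix U133 Plus 2.0 array. Samples were assigned by their titles. A protocol label names an uncoated plate for both, against the title of the Myogel sample and the methods of the paper. The authors made the deposited linear intensity values with dChip. Its version and model, and how it scaled the arrays, could not be taken from the labels or the paper. The values cover 54613 probe sets and 62 controls, and 4.73% of the probe sets on Myogel and 4.42% on plastic were at the floor of 1. The number of arrays limits the precision.

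Probe sets were named from the platform annotation, with symbols updated by Entrez identifier through RefSeq genes of GRCh38.p14. A single gene was given for 41091 probe sets, several for 1801 (not used by name) and no gene for 11721. The median signal of genes, 159.6, was taken over the higher value of each gene. All 34 measured genes were described. Of each related list, up to 2 genes each way that reached both FC 1.5 and this signal were named, or else the gene with the largest change, and of each marker list the 2 brightest, except that the markers at the floor were also named. The genes, lists and alternatives were chosen with earlier results of these data known. Alternatives were quantile normalization, loess centring, a median log2 ratio of 0, offsets, other probe set rules and other thresholds. Python 3.11.15 was used, with pandas 2.3.3 and numpy 2.4.6 for the tables, statsmodels 0.14.6 for loess and matplotlib 3.10.9 for the plots, and the counting was tested on simulated data.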

Additional observations from a re-analysis of the deposited data

How the results depend on the processing

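No paired analysis was possible because each surface is 1 array. The median log2 FC of the lysosomal genes lay between -0.12 (probe sets averaged per gene) and 0.11 (median log2 ratio set to 0) under all alternatives, where that of all genes was -0.11 and 0.04. The lysosomal median was thus above that of all genes as reported but not with averaged probe sets. The counts are small and moved with many settings, as did the shares of all genes beyond FC 1.5. These were 9.71% higher and 17.5% lower as reported, 5.29% and 10.2% with an offset of 16, and 1.81% and 2.89% with one of 50. They were 13.2% and 13.0% after quantile normalization, 13.3% and 12.9% after loess centring, and 11.3% and 15.2% with the median log2 ratio at 0. Averaging gave 11.6% and 21.4%, the second brightest probe set 12.4% and 22.6%, and no suffix 11.2% and 20.7%. Of the lysosomal genes, 1 was higher and 1 lower as reported. Quantile normalization and loess centring (span 0.3) gave 2 higher (CTSK and CTSF) and 1 lower. Setting the median log2 ratio to 0 gave 2 higher and 0 lower, and an offset of 50 gave 0 higher and 1 lower, whereas an offset of 16 and a filter at the median signal changed neither count. Averaging probe sets gave 2 higher and 3 lower, the second brightest probe set 3 higher and 1 lower of 20 genes, and using only probe sets without the suffix x, s or a 1 higher and 2 lower of 27. Any probe set gave 6 higher and 8 lower, a rule for which no share of all genes was counted. FC 1.2 gave 3 higher and 7 lower, and FC 2 gave 0 and 0, where 1257 and 2108 of all genes reached it. FC 1.5 with a difference of 100 units gave 0 higher and 1 lower, and the share of all genes under this rule was not counted either. Among the other lists, quantile normalization and loess centring each gave 1 gene beyond FC 1.5 for the other hydrolases, against 0, and 1 for the other membrane proteins, against 2. The causes were not tested. CTSK and ATP6V0D1, each with 1 probe set, kept their directions under quantile normalization, loess centring and a median log2 ratio of 0. Each of these scalings raised both log2 FCs, to between 0.76 and 0.79 for CTSK and between -0.60 and -0.51 for ATP6V0D1. A constant shift of 0.11, as with the median at 0, could have changed neither direction. Nor can an offset change a direction, or averaging over 1 probe set, so that these settings were no check. Without the suffix probe sets CTSK had no value. All 34 log2 FCs moved by less than the SD of the 1000 probe sets nearest in signal under quantile normalization, loess centring and both offsets. With the median log2 ratio set to 0, 33 did. This is weak as a check, since the scalings moved the median of all genes by only 0.07 to 0.11. The median of these SDs was 0.225, and an offset only draws a log2 FC towards 0. With the second brightest probe set, 12 of 20 moved by more, and 12 changed sign.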
